A study of Mus musculus with 16 samples.

Results

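CC chemokines are small secreted proteins that attract leukocytes by binding G protein-coupled receptors. In the mouse, Ccl2, Ccl7 and Ccl12 are ligands of Ccr2, the receptor of inflammatory monocytes, while Ccl3, Ccl5, Ccl6 and Ccl9 bind Ccr1. Microglia and the macrophages of the brain borders are both known sources of these proteins when they are activated, and the freeing of cells from brain tissue can itself switch some of these genes on. Described here are 10 CC chemokine genes (Ccl2, Ccl3, Ccl4, Ccl5, Ccl6, Ccl7, Ccl8, Ccl9, Ccl12 and Ccl24), picked by name out of the 18580 genes in the tables. All 10 were found, and all 10 passed the filter on low counts in every comparison.

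Macrophages and microglia were sorted from the brains of WT (C57BL/6N) and CD163KO littermates, both sexes, 2 months after α-syn was injected into the striatum on both sides at 12 weeks of age. Every group received α-syn, either as monomer (MONO) or as pre-formed fibrils (PFF), so that no library came from an uninjected brain. CD163KO mice carry a deletion of the gene of CD163, the hemoglobin scavenger receptor, in all cells. Between 4 and 7 mice were injected per group, and the 16 libraries, 8 of macrophages and 8 of microglia, each stand alone for their sex, genotype and treatment. The macrophage gate (CD11b+, CD45 high) also takes in infiltrated macrophages, neutrophils and NK cells, and the microglia gate is CD11b+ with low or intermediate CD45. Whether a library is 1 of the triplicates that were sequenced or their pool is not given, so p-values measure the spread between libraries that differ in sex, genotype or treatment, with those factors as terms in the fit.

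The libraries held between 8640994 and 21431151 estimated counts on genes. The 12 homeostatic microglia genes summed to between 19815 and 46096 FPKM (fragments scaled to transcript length and to the reads assigned) in microglia and to between 1221 and 2830 in macrophages. The macrophage libraries also held neutrophil RNA, with 12 neutrophil genes at a sum of 22182 to 134672 FPKM, against 1057 to 2876 in microglia. Cd163 had between 748 and 5275 counts in WT macrophages and at most 1 count in CD163KO macrophages, while in microglia it had 5 to 23 counts in the 4 libraries labelled CD163KO and 0 to 101 in the 4 labelled WT. Among female microglia it was lower in CD163KO (23 and 11 counts) than in WT (46 and 101), and among males it went against the labels, with 10 and 5 counts in CD163KO and 0 and 1 in WT. These male counts are near 0, and the paper describes CD163 as absent from adult surveilling microglia, so they cannot check the genotype. Male macrophages went with the labels, at 1743 and 5275 counts in WT and 0 and 1 in CD163KO. The libraries of male CD163KO MONO and male WT PFF mice stood apart in both populations. Their 10 most abundant genes took 16.6% and 16.5% of the counts in macrophages, against 39.7% to 64.0% in the other 6, and 47.7% and 58.7% in microglia, against 13.5% to 16.4%. The study itself excluded male CD163KO MONO mice. The microglia library labelled female CD163KO MONO held 799 counts of Y-linked genes, where the other 7 female libraries held at most 2. Results are therefore also given without the 4 libraries that stood apart.

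Of the 10 genes, 9 lie in 2 clusters on chromosome 11 (GRCm38). The first cluster, chr11:82035571-82116799, holds Ccl2, Ccl7, Ccl12 and Ccl8 in this order, all on the plus strand. The second, chr11:83525778-83664683, holds Ccl5, Ccl9, Ccl6, Ccl3 and Ccl4, of which only Ccl4 is on the plus strand. Ccl24 lies by itself at chr5:135569937-135573049 on the minus strand. The genes have 3 exons each, except Ccl6 and Ccl9 with 4 and Ccl24 with 3 or 4.

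RefSeq promoter sequences (GRCm38.p6) matched 5 of the 10 genes. The 120 bases before the start are shown for Ccl8 and Ccl12, neighbors that were both called higher in macrophages, and for Ccl3, which was not called. Capitals mark the letters TATAAA.
Ccl8 (chr11:82115065-82115184, plus strand): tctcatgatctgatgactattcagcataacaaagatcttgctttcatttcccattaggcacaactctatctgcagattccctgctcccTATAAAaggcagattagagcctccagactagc
Ccl12 (chr11:82101725-82101844, plus strand): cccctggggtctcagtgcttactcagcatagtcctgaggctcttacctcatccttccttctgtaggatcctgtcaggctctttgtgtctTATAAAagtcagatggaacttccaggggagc
Ccl3 (chr11:83649379-83649498, minus strand): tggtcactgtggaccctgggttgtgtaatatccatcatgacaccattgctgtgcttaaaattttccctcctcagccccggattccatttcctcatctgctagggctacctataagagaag
TATAAA began 32 bases before the start in Ccl8 and 31 bases before it in Ccl12. The Ccl3 stretch holds tataag near its end, which is not a match and is not marked. For Ccl3 the stretch stops at 83649379, while the GENCODE gene starts at 83649355, so distances depend on the start used. In the 250 bases before the start, searched on both strands, it was in Ccl8, Ccl9 (3 matches, of which 2 overlapped) and Ccl12 and not in Ccl3 or Ccl6, and 12.4% of 32851 RefSeq promoters of this length held it. The AP-1 letters TGANTCA were in Ccl9 alone of the 5 (6.75% of all promoters), as was the NF-kB motif (45.8%), and the PU.1 letters GAGGAAGT were in none of the 5 (2.44%). A match is a description of the letters and not a binding site.

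The comparison of macrophages with microglia asked where each chemokine was expressed. Of the 10 genes, 8 were higher in macrophages (Ccl2, Ccl5, Ccl6, Ccl7, Ccl8, Ccl9, Ccl12 and Ccl24) and none was lower, where 21.1% of the 12412 genes tested were called, 12.7% higher and 8.35% lower in macrophages (edgeR, adjusted p of at most 0.05 and a log2 fold change of at least 1 in size, 8 against 8 libraries). The median log2 fold change of the 10 genes was 4.58, beside -0.18 over all genes tested. Ccl3 and Ccl4 did not pass the test. The same 8 had an unadjusted p below 0.05, as did 33.6% of all genes. With the FPKM as deposited, every macrophage library was above every microglia library for 7 of the 10 genes, which held for 2.33% of the genes tested (7.02% in either direction). In bulk RNA, fewer cells of a type and less RNA per cell cannot be told apart.

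**Figure D1:**
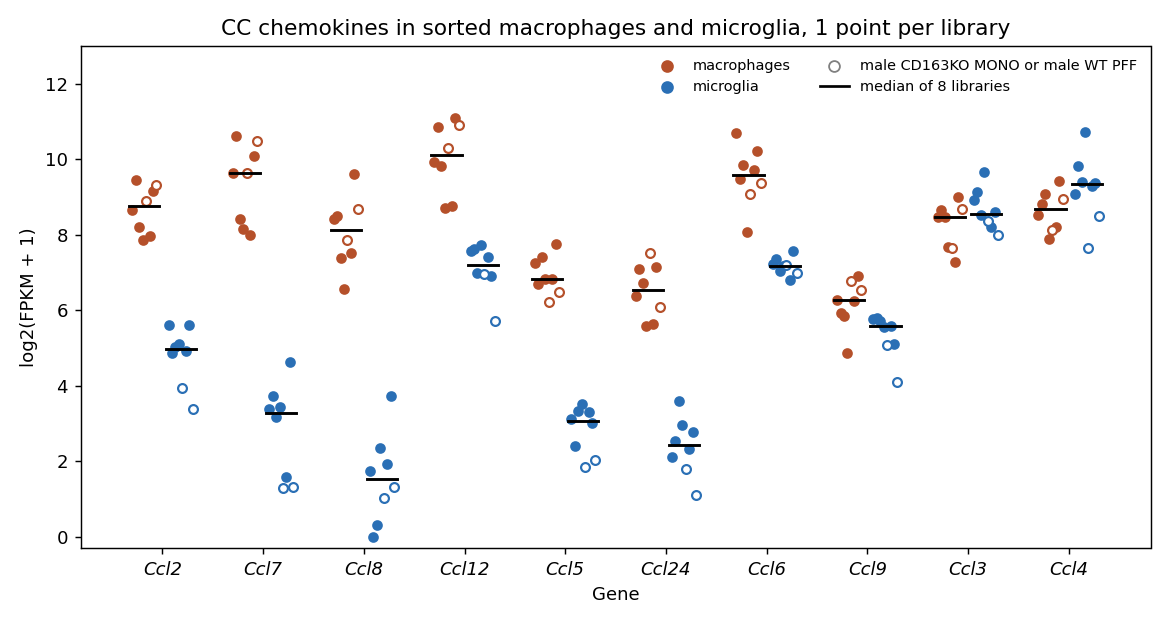
Levels of the 10 genes in each library as log2(FPKM + 1), with 8 macrophage libraries (orange-brown) and 8 microglia libraries (blue) per gene, the median as a black bar, and open circles for male CD163KO MONO and male WT PFF. The populations do not overlap for Ccl2, Ccl7, Ccl8, Ccl12, Ccl5, Ccl24 and Ccl6, and they overlap for Ccl9, Ccl3 and Ccl4.

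In the first cluster on chromosome 11, Ccl7 and Ccl8 had the largest log2 fold changes of the 10 genes. Ccl2, which draws monocytes through Ccr2, was at 231 FPKM in the lowest macrophage library, 437 in the median and 695 in the highest, and at 9.40, 30.5 and 48.0 in microglia. The log2 fold change was 5.06 ± 0.31 SE with TMM scaling, a fold of 33.4 (adjusted p = 5.35e-09), and the fold was 15 with library size. Ccl7, a further Ccr2 ligand, was at 252, 795 and 1568 FPKM in macrophages and at 1.47, 8.69 and 24 in microglia (log2 7.92 ± 0.60, adjusted p = 4.51e-08). For both genes the lowest macrophage library lay above the highest microglia library.

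Ccl8, which binds Ccr8 in the mouse, was at 94.3, 286 and 776 FPKM in macrophages (lowest, median and highest) and at 0, 1.93 and 12.2 in microglia. Its log2 fold change of 8.16 ± 0.80 was the largest of the 10 in this fit (adjusted p = 1.01e-06). The library of female CD163KO PFF microglia held no count of Ccl8, which allows up to 0.175 CPM (3 counts, for counting error only). Ccl12, a Ccr2 ligand found in the mouse, was the most abundant of the 10 in the median macrophage library, at 1113 FPKM with a range of 421 to 2173. In microglia it was at 51.5, 146 and 212 FPKM, and the log2 fold change was 4.10 ± 0.34 (adjusted p = 1.31e-07). Even the lowest microglia library of Ccl12 was above the highest of the other 3 genes of its cluster.

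The microglia library highest in Ccl7 and Ccl8 was also the highest in the sum of 12 border-associated macrophage genes, while the other 7 did not rank alike. The highest Ccl7 (24 FPKM) and Ccl8 (12.2 FPKM) of the 8 microglia libraries were in male WT MONO mice, where 12 genes of border-associated macrophages summed to 233 FPKM, the highest of a range of 38.6 to 233. In macrophages the same 12 genes summed to between 1555 and 4619 FPKM. Ms4a7, Pf4 and Mrc1, 3 of the defining genes, were at 25.4, 39.3 and 12.8 FPKM in that microglia library, the highest of the 8 for each, while Cd163, also on the list, had no count there. Stab1 and Maf, of the same list, had medians of 59.4 and 25.1 FPKM in microglia, where the median of the sum was 140. In macrophages their medians were 73.4 and 9.52 FPKM, so these genes did not set the populations apart. The part of border-associated macrophages in the microglial Ccl7 and Ccl8 values was not tested.

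Ccl5, which is made by T cells, NK cells and macrophages, was at 73.5, 112 and 214 FPKM in macrophages and at 2.59, 7.44 and 10.5 in microglia (log2 5.62 ± 0.46, adjusted p = 1.06e-07). The 12 NK and T cell genes summed to between 47.1 and 212 FPKM in macrophages and to between 0.640 and 13.5 in microglia, with Nkg7 and Gzma at medians of 65.0 and 22.3 FPKM in macrophages. The other 10 genes had medians of at most 6.65 FPKM there, with Cd3e, Cd3g and Eomes at a median of 0 and Ncr1 at 0.39, and male WT PFF macrophages had 9 of the 12 at 0. The part of NK cells in the Ccl5 values was not tested. Ccl24 (eotaxin-2), which attracts eosinophils through Ccr3, was at 46.6, 93.4 and 183 FPKM in macrophages and at 1.16, 4.42 and 11.2 in microglia (log2 5.57 ± 0.33, adjusted p = 4.15e-09). Neither gene overlapped between the populations.

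Ccl6 and Ccl9, ligands of Ccr1 that myeloid cells make without stimulation, were called as well but were the members with the smallest called differences. Ccl6 was at 267.5 to 1660 FPKM in macrophages, with a median of 776, and at 111.5 to 189 in microglia, with a median of 145 (log2 3.60 ± 0.55, adjusted p = 0.000115). Ccl9 was at 28.4, 75.7 and 120 FPKM in macrophages and at 16.3, 46.6 and 54.9 in microglia, so the ranges overlapped in FPKM as deposited (log2 1.98 ± 0.27, adjusted p = 3.42e-05). After TMM scaling they did not, with the lowest macrophage library at 68.9 and the highest microglia library at 41.0. With scaling to the library size in place of TMM, Ccl9 had a log2 fold change of 0.84 ± 0.40 and was not called (adjusted p = 0.107), nor was it with limma at either pseudocount (0.83 and 0.85, adjusted p = 0.0825 and 0.0862). The median over all genes tested moved as well, from -0.18 with TMM to -1.38 with library size and to -0.86 and -1.36 with limma. Its estimated counts were not whole numbers in any library (tolerance 1e-06), as arises when reads are divided among transcripts, so its level is uncertain.

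Ccl3 and Ccl4, the macrophage inflammatory proteins 1α and 1β, were the most abundant of the 10 genes in microglia and did not separate the populations. Ccl3 was at 154, 351 and 513 FPKM in macrophages (lowest, median and highest) and at 254, 377 and 806 in microglia. Ccl4 was at 234, 408 and 689 FPKM in macrophages and at 200, 646 and 1683 in microglia. The ranges overlapped for both. With TMM scaling the log2 fold change was 0.63 ± 0.36 for Ccl3 (adjusted p = 0.239) and 0.58 ± 0.30 for Ccl4 (adjusted p = 0.189), and with library size it was -0.40 ± 0.37 and -0.62 ± 0.39, so the direction depended on the scaling.

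The scaling moved all genes, with a median log2 fold change of -0.18 over the genes tested with TMM and -1.38 with library size. Among all genes the calls were 1582 higher and 1037 lower in macrophages with TMM, and 639 higher and 3319 lower with library size. Relative to these medians, Ccl3 was higher in macrophages by 0.81 and 0.98 and Ccl4 by 0.76 and 0.76, while Ccl2, Ccl5, Ccl6, Ccl7, Ccl8, Ccl12 and Ccl24 were called higher under both scalings. With library size their log2 fold changes were smaller, at 3.91, 4.25, 2.49, 6.74, 6.96, 3.08 and 4.41 in this order. Without the male CD163KO MONO and male WT PFF libraries, Ccl3 was called with a log2 fold change of 1.30 ± 0.23 (adjusted p = 0.000486), and Ccl4 had 0.92 ± 0.23 (adjusted p = 0.0056), short of the limit of 1 on the fold change.

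**Figure D2:**
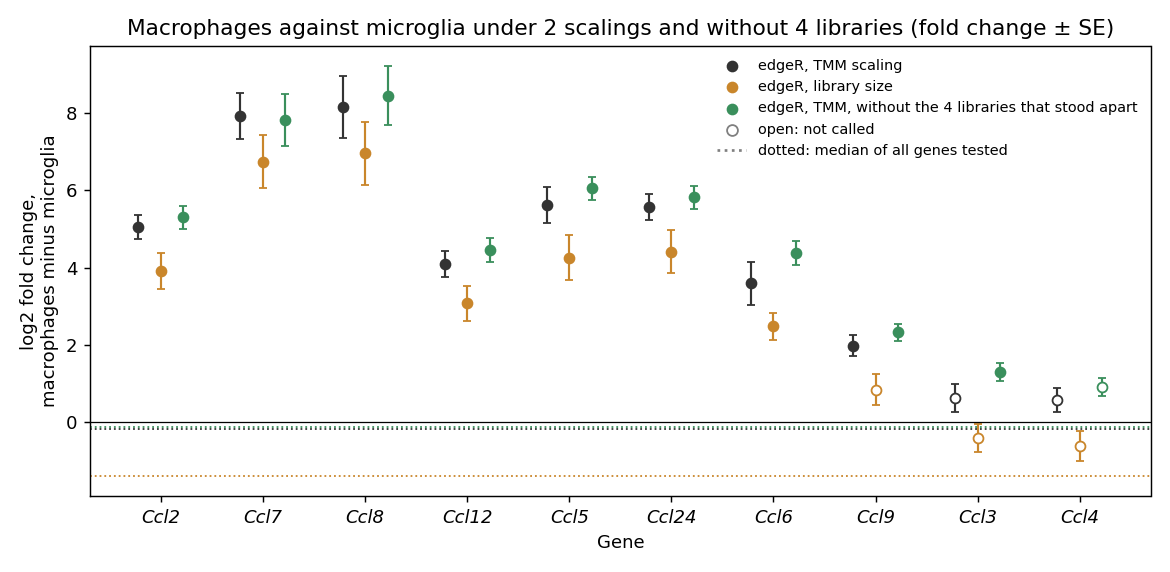
Log2 fold change of macrophages minus microglia, with its SE, for TMM scaling (black), library size (orange) and TMM without the 4 libraries that stood apart (green), where open circles were not called and dotted lines mark the median of all genes tested. Ccl3 and Ccl4 lie above 0 with TMM and below 0 with library size, and the other 8 genes lie above 0 under all 3.

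Shares within a library do not depend on how the library is scaled. Ccl3 and Ccl4 together took 62.0% to 84.2% of the summed FPKM of the 10 genes in microglia (median 72.6%) and 11.6% to 23.2% in macrophages (median 15.3%). The 4 genes of the first cluster (Ccl2, Ccl7, Ccl8 and Ccl12) took 42.3% to 70.9% in macrophages (median 57.8%) and 7.77% to 16.7% in microglia (median 13%). Neither share overlapped between the populations, with or without the libraries that stood apart. The 10 genes summed to between 1923 and 7474 FPKM in macrophages and to between 822 and 2956 in microglia, so these sums did overlap. As a share of all estimated counts they made up 0.155% to 0.582% and 0.0669% to 0.211%.

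**Figure D3:**
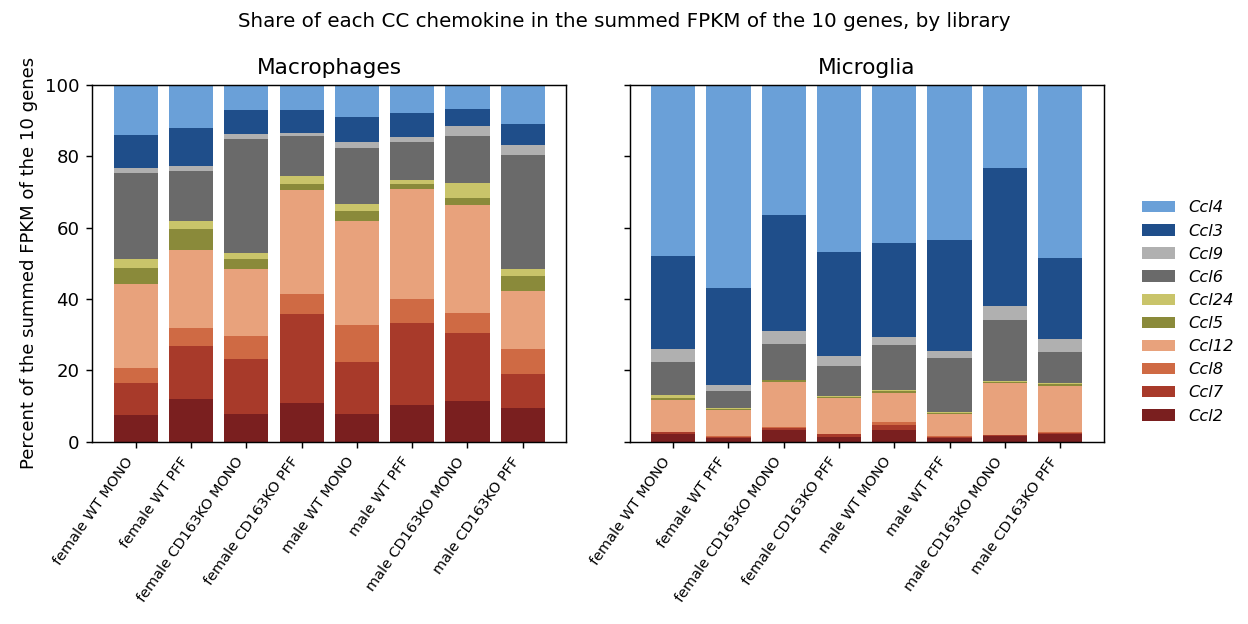
Stacked bars of the percent of the summed FPKM of the 10 genes that each gene took, for the 8 macrophage and the 8 microglia libraries. Ccl3 and Ccl4 (blue) take 62.0% to 84.2% of a microglia bar and 11.6% to 23.2% of a macrophage bar.

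Other genes of the system were read from a list of 13 further CC chemokines and a list of receptors. Of the 13 chemokines 9 were found, 5 were tested and 3 were called higher in macrophages, of which Ccl17, a ligand of Ccr4 made by dendritic cells, was the most abundant (13.8 to 90.0 FPKM in macrophages and at most 0.24 in microglia). Ccl22, which also binds Ccr4, was at 0 to 18.2 FPKM in macrophages and at most 3.25 in microglia (log2 5.33 ± 1.43, adjusted p = 0.0111). Ccl19, which binds Ccr7, did not exceed 2.83 FPKM in any library, and it had a log2 fold change of 5.09 ± 1.56 (adjusted p = 0.0241) and of 5.07 ± 2.29 with DESeq2 (adjusted p = 0.0731). Ccl27a was at 0 to 26.4 FPKM in macrophages and at 1.54 to 7.71 in microglia and was not called. Cd209a and Clec10a, from the list of dendritic cell genes, were at medians of 864 and 205 FPKM in macrophages and 2.16 and 0.245 in microglia. Other genes of that list were low in macrophages, with Flt3 at a median of 1.59, Xcr1 at 0.745 and Clec9a at 0.15 FPKM, and Batf3 was at 20.5 in macrophages and 44.9 in microglia. The part of dendritic cells in the Ccl17 and Ccl22 values was not tested.

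Of the 15 receptors on the list 8 were tested and 4 were called higher in macrophages, where 12.7% of all genes tested were. Ccr2, the receptor of Ccl2, Ccl7 and Ccl12, was at 26.1 to 189 FPKM in macrophages and at 0.300 to 5.35 in microglia (log2 6.12 ± 0.43, adjusted p = 1.98e-08). Ccr1, which binds Ccl3, Ccl5, Ccl6 and Ccl9, was at 15 to 76.3 and 0.400 to 12.2 FPKM (log2 4.31 ± 0.45, adjusted p = 2.14e-06). With library size the log2 fold changes of Ccr2 and Ccr1 were 5.01 and 3.02, and both were still called. Ccrl2 and Ccr7 were the other genes called higher, but Ccrl2 had a log2 fold change of 1.07 with TMM and -0.27 with library size, and Ccr7 did not exceed 3.34 FPKM. Ccr3, the receptor of Ccl24, was at 0 to 11.5 FPKM in macrophages and at 0.08 to 3.03 in microglia and was not called. Ccr9 and Ccr1l1 were called lower in macrophages, and did not exceed 1.45 and 4.67 FPKM in microglia. Both were also called with library size and with limma at a pseudocount of 0.1. Neither was with limma at a pseudocount of 1 (log2 -0.45 and -0.74). With DESeq2 Ccr9 was called and Ccr1l1 was not (adjusted p = 0.00596 and 0.0558). Without the 4 libraries that stood apart, Ccr9 had an adjusted p of 0.0553 and Ccr1l1 one of 0.0548, with log2 fold changes of -7.37 (with all libraries -7.37) and -5.32 (with all libraries -4.69).

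The comparison of PFF with MONO asked whether the fibrils changed the chemokines of each population. In macrophages none of the 10 genes was called, as was none of the 12066 genes tested (0.0%, edgeR, 4 against 4 libraries, with sex and genotype as terms), and none of the 10 had an unadjusted p below 0.05 (0.68% of all genes did). DESeq2 called 5 genes, none of them among the 10. Log2 fold changes ran from -0.56 ± 0.66 for Ccl6 to 0.33 ± 0.41 for Ccl2, with 5 of each sign and a median SE of 0.48, so changes below about 1 on the log2 scale were within 2 SE.

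The 3 Ccr2 ligands varied widely between macrophage libraries of the same treatment. Ccl7 was at 799 FPKM (female CD163KO), 338 (female WT), 790 (male CD163KO) and 1095 (male WT) with MONO, and at 1568, 286, 252 and 1439 with PFF. It was higher with PFF in 2 of the 4 matched pairs in FPKM and in 3 of 4 after TMM scaling. Ccl12 was at 976, 899, 1249 and 2173 FPKM in the same order with MONO and at 1851, 421, 433 and 1921 with PFF. Ccl2 was at 401, 293, 472 and 574 with MONO and at 695, 231, 251.4 and 634 with PFF. In FPKM as deposited, the PFF libraries of female WT and male CD163KO mice had the lowest values of all 8 for Ccl2, Ccl7 and Ccl12. After TMM scaling they did not, since Ccl2 was then at 705 and 611 in these libraries and at 302 in male CD163KO MONO, the lowest. The groups overlapped under both scalings.

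Those same libraries were lowest in border-associated macrophage RNA in FPKM as deposited, but not after TMM scaling. The 12 genes of these cells, which include Cd163, summed to 1555 FPKM in female WT PFF macrophages and to 1825 in male CD163KO PFF macrophages, against 2587 to 4619 in the other 6. After TMM scaling the sums were 4745 and 4434, and the lowest were 2950 in male CD163KO MONO and 3162 in male WT PFF macrophages. Over the 8 macrophage libraries, the gene whose TMM-scaled profile was most like that of Ccl7 was Folr2, itself on the list of border-associated macrophage genes (Pearson's r = 0.93 of log2 values, out of 3526 genes, as a description). The part of border-associated macrophages in these differences was not tested. Ccl6 was at 1660, 924, 541 and 1181 FPKM under MONO (female CD163KO, female WT, male CD163KO and male WT) and 708, 267.5, 843 and 656 under PFF. In FPKM as deposited its lowest library, female WT PFF, also had the lowest sum of neutrophil genes (22182 FPKM). After TMM scaling, male CD163KO MONO was lowest in both Ccl6 (345) and that sum (52537), and female CD163KO MONO and male CD163KO PFF were the highest in both, with Ccl6 at 3671 and 2047 and sums of 218371 and 327150. Ccl6 and the sum are divided by the same TMM factor, so shared ranks are partly built in. The factors were 1.57, 0.452 and 0.412 in these libraries, in the order named. As deposited, their sums were 82260, 98753 and 134672 FPKM. S100a8 alone had a median of 61854 FPKM in macrophages, where that of the sum was 90507. The part of neutrophils in the Ccl6 values was not tested.

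The other 6 members also overlapped between the treatments in macrophages. Ccl8 was at 339, 166, 232 and 776 FPKM with MONO (female CD163KO, female WT, male CD163KO and male WT) and at 361, 94.3, 183 and 412 with PFF, highest in male WT MONO mice as in microglia. Ccl5 was at 152, 170, 73.5 and 214 with MONO and at 103, 112, 112 and 88.2 with PFF. Ccl24 was at 81.6, 105, 183 and 140.5 with MONO and at 136, 46.6, 48.6 and 66.9 with PFF. The log2 fold changes of these 3 were -0.33 ± 0.58, 0.05 ± 0.61 and -0.34 ± 0.40. That of Ccl24 was -0.011 without male WT MONO, -0.0079 without male WT PFF and -0.53 without female CD163KO MONO, and -0.78 with library size. Ccl9 was at 76.3, 57.0, 108 and 120 with MONO and at 60.0, 28.4, 75.2 and 92.2 with PFF, lower in 4 of 4 pairs in FPKM and in 2 of 4 after TMM scaling (log2 -0.13 ± 0.43). Ccl3 was at 351, 352, 200 and 513 with MONO and at 402.5, 202, 154 and 408 with PFF (log2 0.01 ± 0.46). Ccl4 was at 368, 539, 279 and 689 with MONO and at 449, 234, 293 and 494.5 with PFF (log2 0.07 ± 0.48).

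Likeness of profiles was measured as Pearson's r of log2(TMM-scaled FPKM + 1) over 8 macrophage libraries, without a test. The gene most like Ccl2 was Morf4l1 (r = 0.985), and Ccl7 was the member most like it (r = 0.859). Ccl12 was most like Tgtp2 (r = 0.963) and, among members, Ccl7 (r = 0.903), and Ccl8 was most like Ranbp1 (r = 0.945) and Ccl12 (r = 0.842). For each of the 4 genes in the first cluster the closest member was thus a gene of the same cluster. Ccl6 was most like Prr13 (r = 0.998) and Ccl9 most like Capg (r = 0.939), and these neighbors were also each other's closest member (r = 0.877). Ccl5 was most like Ifitm3 (r = 0.993) and Ccl24 most like Zfyve21 (r = 0.98). The libraries share the TMM factors, which differed widely and enter every r.

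In microglia none of the 10 genes was called between PFF and MONO, nor was any of the 12850 genes tested (0.0%), and 1 of the 10, Ccl4, had an unadjusted p below 0.05, where 2.96% of all genes did. Ccl4 was at 543 FPKM (female CD163KO), 677 (female WT), 200 (male CD163KO) and 662 (male WT) with MONO. With PFF it was at 900, 1683, 629 and 358 in the same order. It was thus higher in 3 of the 4 pairs in FPKM and in 4 of 4 after TMM scaling, and the groups overlapped. The log2 fold change was 0.98 ± 0.35 (edgeR, adjusted p = 1.00, unadjusted p = 0.0152), and it was 0.92 without the male CD163KO MONO and male WT PFF libraries (adjusted p = 0.615).

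Ccl3 in the same microglia was at 482, 364, 329 and 389 FPKM with MONO (female CD163KO, female WT, male CD163KO and male WT) and at 558, 806, 293 and 254 with PFF, and its log2 fold change was 0.48 ± 0.49 (adjusted p = 1.00). The ratio of Ccl4 to Ccl3, which scaling does not change, was 1.13, 1.86, 0.608 and 1.70 with MONO and 1.61, 2.09, 2.14 and 1.41 with PFF. It was higher with PFF in 3 of the 4 pairs, all but male WT. The other 8 genes had log2 fold changes between -0.53 ± 1.87 (Ccl8) and 0.27 ± 0.35 (Ccl12).

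Immediate early genes, which rise within minutes of a stimulus, were set beside Ccl3 and Ccl4 in microglia, and the ranking of the libraries depended on the scaling. In FPKM as deposited, the 20 genes of that list summed to 6868 in female WT PFF microglia, the library highest in both chemokines. The lowest sums were 705 FPKM in male CD163KO MONO microglia, which was lowest in Ccl4, and 1240 in male WT PFF microglia, which was lowest in Ccl3. The other 5 libraries had between 1928 and 3966. The libraries of male CD163KO MONO and male WT PFF mice are those that stood apart. After TMM scaling, Ccl3 was highest in male WT PFF microglia (596), where the list summed to 2905, and lowest in male CD163KO PFF microglia (153), where it summed to 1778. Ccl4 (869) and the list (3545) were both still highest in female WT PFF microglia. Btg2, an immediate early gene, was the gene most like Ccl4 over the 8 libraries (r = 0.94 of 5100 genes, as a description), and Maged2 was the gene most like Ccl3 (r = 0.96). The part of cell activation during isolation in these values was not tested.

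**Figure D4:**
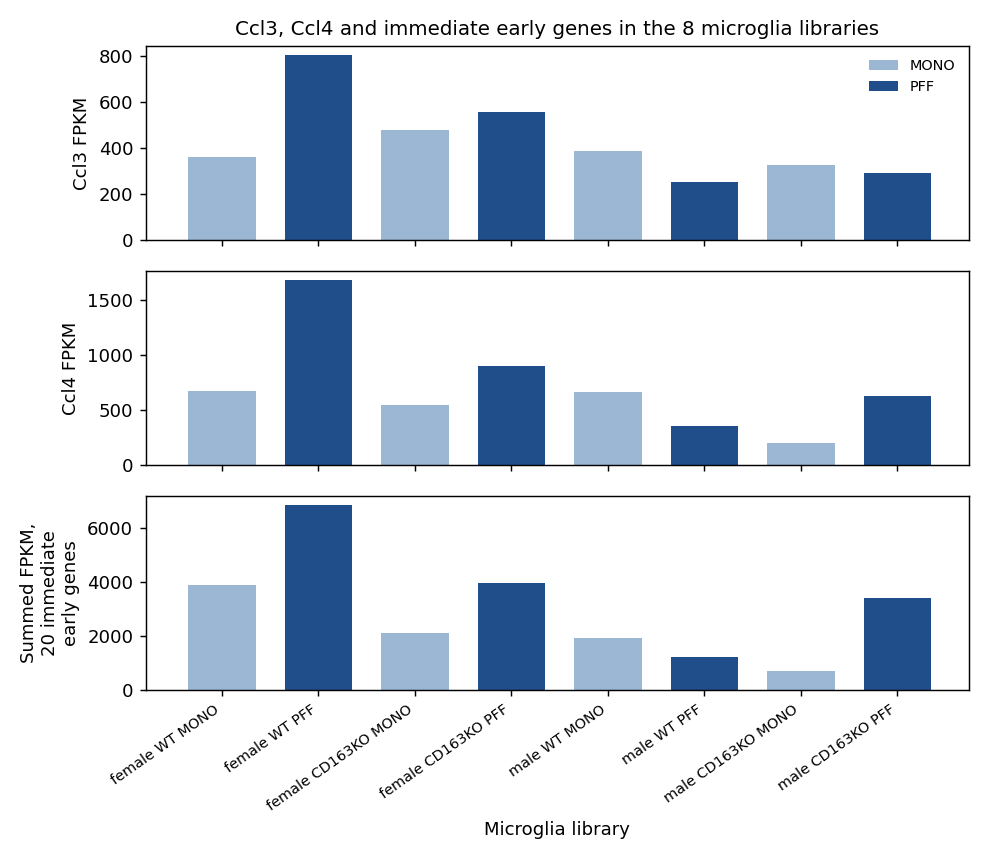
FPKM of Ccl3 (top) and Ccl4 (middle) and the summed FPKM of 20 immediate early genes (bottom), as deposited, in the 8 microglia libraries, with MONO in light and PFF in dark blue. Female WT PFF is highest in all 3 panels, at 806, 1683 and 6868 FPKM.

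CD163KO against WT addressed what loss of the receptor did to the chemokines. In macrophages 1 of 12066 genes was called (0.00829%), Cd163 itself, and none of the 10 chemokines was (edgeR, 4 against 4 libraries). None of the 10 had an unadjusted p below 0.05, where 0.721% of all genes did. The largest log2 fold change was 0.89 ± 0.65 for Ccl6 (adjusted p = 1.00), which averaged 938 ± 497 FPKM in CD163KO and 757 ± 390 in WT macrophages (SD, n = 4 each). The lowest was -0.25 ± 0.47 for Ccl3, at 277 ± 118.7 and 369 ± 130 FPKM. The log2 fold change of Ccl6 was 0.04 with the male CD163KO PFF library left out and 1.34 with the male CD163KO MONO library left out (adjusted p = 1.00 each).

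In microglia the genotypes are those of the labels, where all 4 libraries labelled CD163KO held a few Cd163 counts and the males, with at most 10 counts, went against the labels. No gene of the 12850 was called between the genotypes (0.0%), and none of the 10 had an unadjusted p below 0.05 (1.63% of all genes did). DESeq2 called 4 genes, none of them a chemokine of the 10. Ccl4 came closest, with 568 ± 288 FPKM in CD163KO and 845 ± 578 in WT microglia (SD, n = 4 each) and a log2 fold change of -0.71 ± 0.35 (unadjusted p = 0.063, adjusted p = 0.999). It was lower in CD163KO in 3 of 4 pairs in FPKM and in 4 of 4 after TMM scaling. Without the microglia library labelled female CD163KO MONO the value was -0.79. Of the other 9 genes, Ccl12 and Ccl9 had positive log2 fold changes (0.40 ± 0.34 and 0.23 ± 0.34) and 7 had negative ones, the lowest being -1.51 ± 1.93 for Ccl8.

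**Figure D5:**
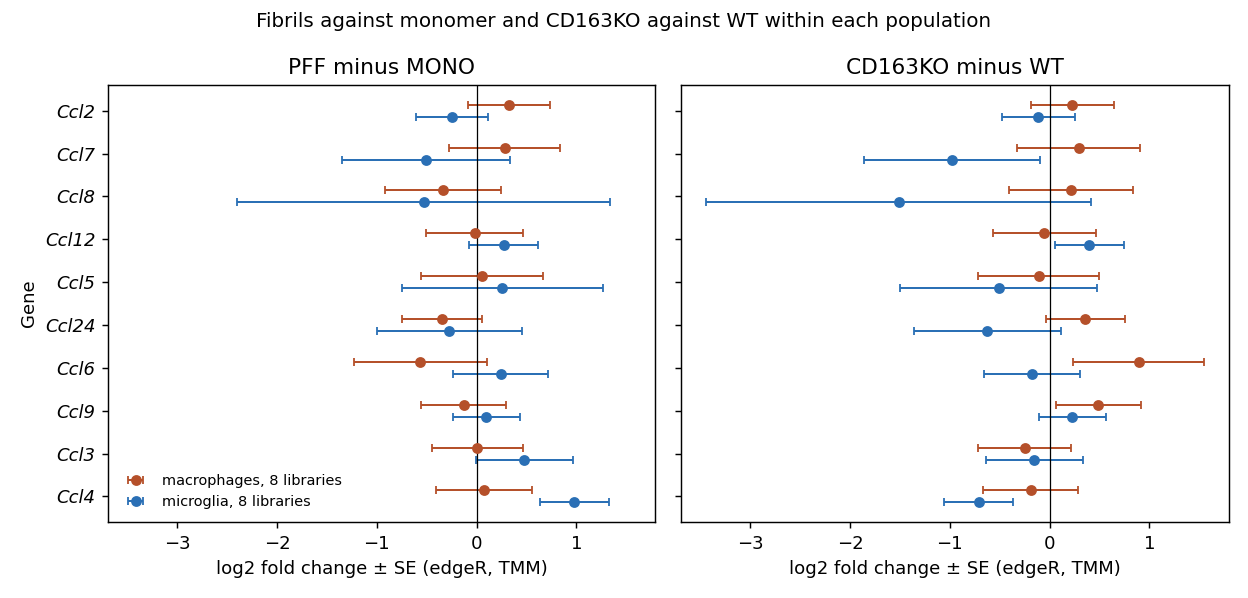
Log2 fold changes with SE of PFF minus MONO (left) and CD163KO minus WT (right) for the 10 genes in 8 macrophage libraries (orange-brown) and 8 microglia libraries (blue). None was called, and Ccl4 in microglia lies farthest from 0 in units of its SE, at 0.98 ± 0.35 for PFF and -0.71 ± 0.35 for CD163KO.

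Whether the effect of PFF depended on the genotype was tested as an interaction. No gene was called in either population (0.0% of 12066 and 0.0% of 12850), where DESeq2 called 32 and 11, none of them among the 10. In macrophages none of the 10 had an unadjusted p below 0.05 (1.16% of all genes did), and the median of the 10 interaction terms was 0.97 beside 0.60 over all genes tested. Their direction depended on the libraries included, since all 10 were positive with the 8 libraries and 7 were negative without male CD163KO MONO and male WT PFF, where Ccl5 had -1.55 and Ccl4 -0.12. With the 8 libraries the highest was 1.42 ± 1.33 for Ccl5 and the lowest 0.34 ± 1.17 for Ccl7. In microglia 2 of the 10 had an unadjusted p below 0.05, where 5.47% of all genes did. These were Ccl3 (-2.07 ± 0.74) and Ccl12 (-1.42 ± 0.56), with an adjusted p of 0.864 for each (edgeR). The 10 terms ran from -4.08 ± 4.74 for Ccl8 to 1.09 ± 1.67 for Ccl7, with a median of -0.94 beside -0.10 over all genes.

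Both interaction terms in microglia changed with the scaling and with the libraries included. With library size the Ccl3 term was -0.27 and that of Ccl12 was 0.35, while the median of all genes moved from -0.10 to 1.67. Relative to the median, they were -1.97 and -1.32 with TMM and -1.95 and -1.32 with library size. Without the male CD163KO MONO and male WT PFF libraries they were -0.97 and -0.80 (adjusted p = 1.00 each), which leaves 4 female libraries and 1 male library of each genotype. In the libraries labelled female, Ccl3 went from 364 to 806 FPKM in WT and from 482 to 558 in CD163KO microglia, and Ccl12 from 125 to 212 and from 188 to 195. The CD163KO MONO values among these come from the library with 799 counts of Y-linked genes.

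Between males and females none of the 10 genes was called in either population. In macrophages 1 of 12066 genes was called (0.00829%), the Y-linked Ddx3y, and none of the 10 had an unadjusted p below 0.05 (2.59% of all genes did). The lowest p of the 10 was that of Ccl3, with a log2 fold change of -0.93 ± 0.47 in males (unadjusted p = 0.0759, adjusted p = 1.00) beside a median of -0.29 over all genes. It was -0.56 without the male CD163KO MONO library and -1.45 without the male WT MONO library (adjusted p = 1.00 and 0.924, edgeR). In microglia no gene of 12850 was called (0.0%), and 1 of the 10, Ccl6, had an unadjusted p below 0.05, where 5.3% of all genes did. Ccl6 was at 148, 163, 130 and 144 FPKM in libraries labelled female (CD163KO MONO, CD163KO PFF, WT MONO and WT PFF) and at 146, 111.5, 189 and 126 in males, with overlap. The 148 comes from the library with 799 counts of Y-linked genes, so the sex groups in microglia are those of the labels. The log2 fold change of Ccl6 was 1.11 ± 0.47 (adjusted p = 0.919) with TMM, -0.053 with library size and 0.017 without the libraries that stood apart.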

How the data were processed

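SMART-seq2 reads of 16 sorted libraries were cleaned, mapped with Bowtie2 and quantified with RSEM by the authors, and the build is mm10 per the labels. The deposited tables list RefSeq transcripts with expected counts (estimated by RSEM, not normalized) and FPKM, which the authors computed per transcript length and assigned reads. Unlisted transcripts were taken as 0. Transcripts were summed by symbol (27632 of 27787 had one, 99.4%) to 18580 genes, and counts without a symbol made up at most 0.128% of a library. Counts per library limit the precision to counting error for low values such as Ccl8 in microglia, where PCR copies count as separate reads.

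Expected counts were rounded and fitted in R 4.3.3 with edgeR 4.0.16 (quasi-likelihood test, filterByExpr, TMM), with p-values adjusted by Benjamini-Hochberg over all genes tested and not within the 10. A gene was called at an adjusted p of at most 0.05 and a log2 fold change of at least 1 in size, the limits of the study's methods. Sex, genotype and treatment were additive terms, and 9 comparisons were made. Alternatives were DESeq2 1.42.0, no TMM, no filter, limma 3.58.1 on log2(FPKM + 1) or log2(FPKM + 0.1), no limit on the fold change, a replicate block, and libraries left out, and the fit was tested on simulated data. The fit without male CD163KO MONO and male WT PFF libraries was chosen after seeing the data. The 10 genes, the gene lists and the tests were chosen with earlier results of these data known. From the further chemokines and receptors, genes are named when called or at an FPKM of at least 10 in a library, and for each of the 10 the gene with the most similar profile was sought among genes with a mean FPKM of at least 10. A receptor on the list is not reported here. The study's correction for batches could not be repeated, since batches are not given per library. Promoters and starts came from RefSeq (GRCm38.p6) and gene positions from GENCODE M21, with tables made in Python 3.11.15 and pandas 2.3.3.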

Additional observations from a re-analysis of the deposited data

Results flagged for a closer look

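In FPKM as deposited, Ccl12 in microglia was at 188 in the library labelled female CD163KO MONO, apart from 120, 123.5 and 125 in the other 3 MONO libraries, whose gap to it was larger than Dixon's 95% limit allows for 4 values. Of 80 groups of 4 libraries checked, this was the only 1 to pass, where chance alone gives about 1 in 20. After TMM scaling it no longer stood apart, with 95.2 against 60.0, 153 and 59.7, where male CD163KO MONO was highest. It is the library that also held 799 counts of Y-linked genes. Leaving it out moved the genotype by treatment term of Ccl12 from -1.42 to -1.78 (adjusted p = 0.48, edgeR).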

How the results depend on the processing

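Calls between macrophages and microglia numbered 2619, and 3958 with library size, 5136 and 5749 with limma at pseudocounts of 1 and 0.1, 4141 without male CD163KO MONO and male WT PFF libraries, 2103 with the replicate block (libraries matched by sex, genotype and treatment, since the numbers in the labels pair no samples) and 2304 to 3359 with 1 library left out. Of the 10 genes, 8 were called under the block and with any library left out, 7 with library size and both limma fits (without Ccl9) and 9 without the libraries that stood apart (with Ccl3). Ccl3 turned to -0.40, -0.44 and -0.44 and Ccl4 to -0.62, -0.60 and -0.61 with library size and limma at pseudocounts of 1 and 0.1. Within populations none of the 10 was called under any setting. Without male CD163KO MONO and male WT PFF libraries the Ccl4 interaction in macrophages turned from 1.40 to -0.12. In microglia the sex difference of Ccl6 turned to -0.053, -0.054 and -0.055 under library size and both limma fits, and the Ccl12 interaction to 0.35, 0.47 and 0.47. The causes were not tested. The block moved no other call of a member, and the interaction has no blocked fit.

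Over all genes, PFF against MONO in macrophages had 0 calls, and 5 with DESeq2, 2 and 5 with limma (pseudocounts 1 and 0.1) and 4 without the libraries that stood apart. For CD163KO against WT in macrophages the 1 call became 7, 3, 5 and 5 in that order and 0 to 1 with a library left out. The 1 sex call in macrophages became 32, 14, 22 and 7 in that order, 5 with library size and 0 without male CD163KO MONO or with any 1 library left out. The macrophage interaction went from 0 to 32, 1, 9 and 33 in that order, 7 with library size and 0 to 823 with 1 library left out (823 without female WT PFF). In microglia PFF against MONO went from 0 to 3 with DESeq2, 2 with library size, 8 with no filter and 1 without the libraries that stood apart, and CD163KO against WT to 4 with DESeq2 and 13 with no filter. Sex in microglia went from 0 to 32 with DESeq2, 11 with library size, 212 with no filter, 6 and 9 with limma, 2 without female CD163KO MONO, 2 without the libraries that stood apart and 0 to 2 with 1 library left out. The microglia interaction went from 0 to 11, 5, 134, 7 and 6 in that order, 3 without male CD163KO MONO, 1 without the libraries that stood apart and 0 to 620 with 1 library left out (620 without female WT MONO).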
